A study of Mus musculus with 6 samples.

Results

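Neurotrophic factors are secreted proteins that keep neurons alive and shape their connections. Brain-derived neurotrophic factor (Bdnf) and neurotrophin-3 (Ntf3) signal through the tyrosine kinase receptors TrkB (Ntrk2) and TrkC (Ntrk3) and through the shared receptor p75 (Ngfr). Glial cell line-derived neurotrophic factor (Gdnf) binds its membrane-anchored co-receptor Gfra1, which then engages the kinase Ret. Ciliary neurotrophic factor (Cntf) belongs to a separate, cytokine-like family and is made in the nervous system mainly by glia. These 9 genes were examined in mouse brain. They were chosen by name from a total of 24242 genes named on the array, and 15 probes, printed as 33 spots per array, measured them.

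RNA from the brain of male C57BL/6N mice was hybridised to 1-colour Agilent arrays, with 3 Pla2g2e-/- (KO) sham samples and 3 wild-type (WT) sham samples. Pla2g2e encodes a secreted phospholipase A2, and the deletion is the only difference between the groups that the labels give. Every sample is titled and described as sham-operated, while the treatment text attached to all of them speaks of middle cerebral artery occlusion for 60 min. Age, the brain region taken and the deleted part of Pla2g2e were not given in the sources used here. Nothing in the labels states that each of the 3 samples of a group is a different animal, so a p-value here reflects only sample-to-sample spread, which could be technical.

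Levels are log2 processed signals relative to the 75th percentile of the same array, so a level of 0 is the signal at that percentile. Brightness depends on the probe, so differences are taken between samples for 1 probe. Where levels are summed over genes, or probes are called bright or dim, the values depend on the probes and do not compare transcript amounts between genes. Between 82.0% and 85.3% of the non-control spots were well above background, and no spot was saturated. KO sham replicate 1 shared a slide with all 3 WT sham samples, whereas KO sham replicates 2 and 3 were on a second slide. In bulk brain RNA, fewer cells of a type and less RNA per cell cannot be told apart. Of the 2 Pla2g2e probes, the one at chr4:138438659-138438718 (mm9) had levels of -7.07, -7.87 and -7.83 in KO sham against -7.09, -7.26 and -6.67 in WT sham (difference -0.59 ± 0.26 SE, adjusted p = 0.437, limma). The other, at chr4:138438368-138438427, differed by 0.33 ± 0.18 (adjusted p = 0.494). Both probes were dim, and whether either lies in the deleted stretch is not known here, so they do not check the genotype labels. Among 10 general brain markers, all were well above background on all 6 arrays, while of 5 genes listed as markers of other organs Myh7, Sftpc and Ins2 were above it on 6 arrays, Umod on 4 and albumin (Alb) on 0.

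The probes are 60-base oligonucleotides, and their positions decide which receptor form each one reads. TrkB and TrkC are each made as a full-length receptor with a kinase domain and as truncated receptors that lack it and can hold ligand without kinase signalling. The following coding sequences, taken from the array files, are shown because they separate these forms (5′ to 3′, in the sense of the transcript, mm9). In the first kinase probe the capitals mark the codons of the motif that opens the activation loop of the kinase, and in the truncated probe they mark the stop codon that ends the short form.
Ntrk2 shared probe, chr13:58979563-58979622, plus strand: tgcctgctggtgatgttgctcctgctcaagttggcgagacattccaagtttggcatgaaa
Ntrk3 kinase probe 1, chr7:85392044-85392103, minus strand: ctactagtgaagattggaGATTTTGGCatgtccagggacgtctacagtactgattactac
Ntrk3 kinase probe 2, chr7:85337455-85337514, minus strand: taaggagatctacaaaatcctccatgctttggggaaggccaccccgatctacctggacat
Ntrk3 truncated probe 1, chr7:85447515-85447574, minus strand: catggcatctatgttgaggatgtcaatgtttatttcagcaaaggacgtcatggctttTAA
The shared Ntrk2 probe covers the membrane-spanning stretch that both receptor forms keep. The other Ntrk2 and Ntrk3 probes are named for the form whose accessions the array annotation gives them. Of the ligand probes, the first 30 bases are shown for Bdnf and Gdnf, whose difference between the genotypes had an unadjusted p under 0.05 in limma.
Bdnf, chr2:109566961-109567020, plus strand: gtaaatgtctgtggccttgttctctctatg
Gdnf, chr15:7787474-7787533, plus strand: ctgatgtctcggtcgtttgtgttatacaac
The Bdnf probe position is shared by transcripts from all promoters that end there, so it does not separate them. A Bdnf transcript that ended before this position would not be read, so the value need not stand for all Bdnf transcripts. The guanine and cytosine content of the 15 probes ran from 35.0% to 51.7%, with a median of 41.7% against 43.3% over all tested probes.

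The comparison of KO with WT sham brain asks whether the genotypes differ in the level of these transcripts in brain labelled as sham-operated. All 15 member probes were well above background on all 6 arrays, and 0 of them passed an adjusted p of 0.05 in limma. Of the 31955 tested probes 0% passed (smallest adjusted p 0.188). Before adjustment, with p under 0.05, 3 of 15 member probes (20.0%) differed, against 12.1% of all tested probes. Bdnf and 1 Ntrk3 probe were higher in KO sham, a direction taken by 3.05% of all probes, and Gdnf was lower, a direction taken by 9.06%. For 5 of 15 member probes (33.3%) the KO and WT samples did not overlap, 3 of them higher and 2 lower in KO sham, against 19.4% of all probes (7.34% higher, 12.0% lower). All 3 higher probes were of 1 gene, Ntrk3, and are not independent of each other, so these shares do not show an excess among the members. The median difference of the member probes was -0.04, and that of all tested probes was -0.01. With arrays centred on their median the median over all probes was 0.13 and the share of lower probes among those with an unadjusted p under 0.05 was 24.1%, against 74.8% with the 75th percentile and 39.3% after quantile normalization, so directions of small differences depend on the scaling.

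**Figure D1:**
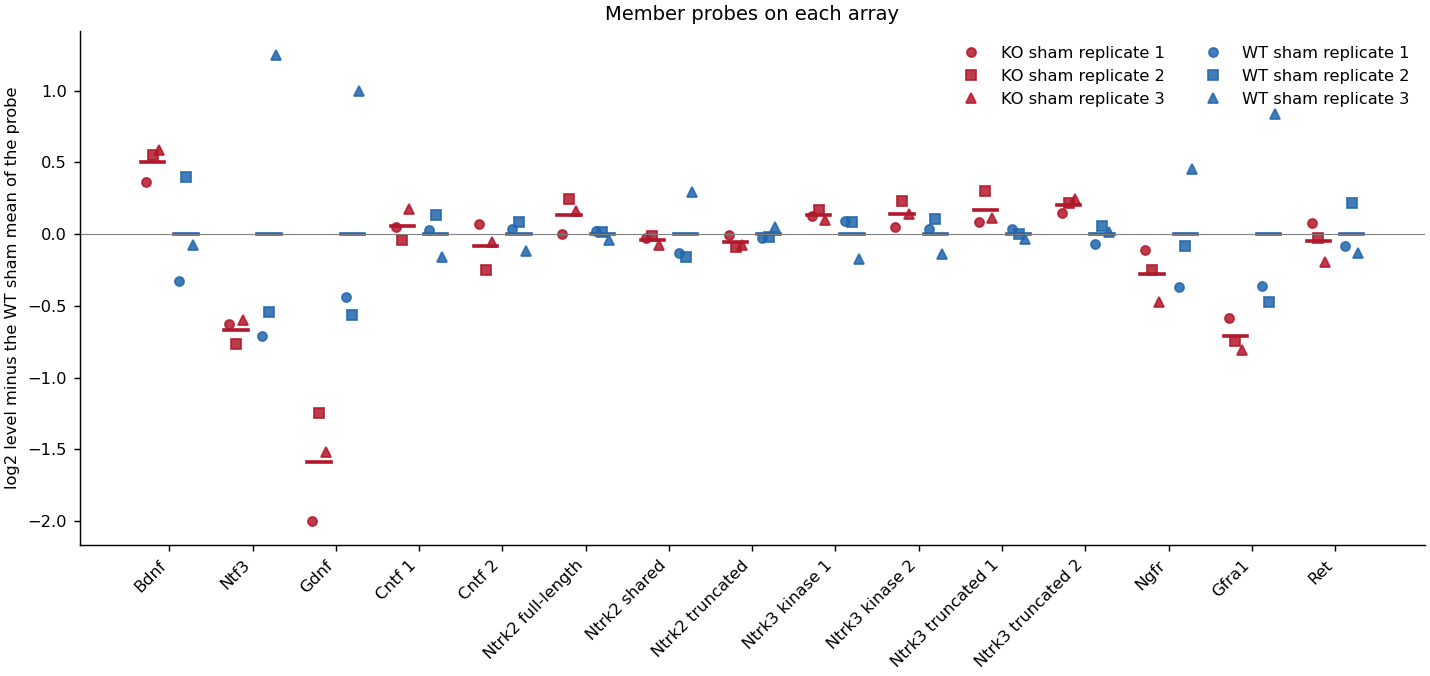
Levels of the 15 member probes on each of the 6 arrays. The x axis lists the probes, the y axis gives the log2 level minus the WT sham mean of that probe, points are arrays (KO sham red and left, WT sham blue and right of it) and bars are group means. WT sham replicate 3 is far above the other 5 arrays for Ntf3, Gdnf and Gfra1, and the Ntrk3 probes vary little.

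Bdnf, the activity-dependent ligand of TrkB, is made mainly by excitatory neurons of cortex and hippocampus. Its level was 0.86, 1.05 and 1.08 in KO sham replicates 1 to 3 and 0.17, 0.89 and 0.42 in WT sham replicates 1 to 3. The KO samples lay close together and the WT samples were spread, with WT replicate 2 above KO replicate 1, so the groups overlapped. The mean was 0.99 ± 0.12 in KO sham and 0.49 ± 0.37 in WT sham (SD, n = 3 each), a difference of 0.50 ± 0.19 (SE; 95% interval 0.03 to 0.97), or 1.41-fold. Its unadjusted p was 0.0397 and its adjusted p was 0.392 in limma over all 31955 probes. Without WT replicate 2 the difference was 0.70, without WT replicate 1 it was 0.34, and on the slide that held both genotypes (KO replicate 1 against the WT samples) it was 0.36.

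Activity-induced transcription factors and effectors are the best known companions of Bdnf transcription, and all 13 activity genes examined were higher in KO sham under each of the 4 scalings (median difference 0.45). Without WT replicate 3, 12 of 13 were higher and the median was 0.25. Of these 13, 5 had an unadjusted p under 0.05 in limma, against 2.98% of all genes in that direction, and 0 passed after adjustment. The 13 genes were read in the same samples and are not independent of each other. They were also listed with earlier results of these data known, so these counts do not show an excess. The same holds for the other marker lists below. The median of the 13 genes relative to the WT mean was 0.45, 0.38 and 0.44 in KO sham replicates 1 to 3. It was 0.07, 0.38 and -0.40 in WT sham replicates 1 to 3. WT replicate 2, which had the highest Bdnf level of its group, was also the WT array with the highest activity-gene median. WT replicate 3 had the lowest such median, while its Bdnf level was above that of WT replicate 1. The AP-1 member Fosb, which had the largest of the 13 differences, was at 1.10, 1.13 and 1.21 in KO sham and at 0.01, 0.83 and 0.09 in WT sham (0.84 ± 0.22). The smallest was that of Npas4, an early-induced transcription factor, at 0.13 ± 0.19. The part of neuronal activity in the Bdnf difference was not tested.

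One of the 7 Bdnf promoters in the RefSeq table (build GRCm38.p6) is shown because it carries a cyclic AMP response element-like motif just before its start site. The motif TCACGTCA was searched on both strands (TGACGTGA on the other) in windows of 300 bases. It was chosen by hand with Bdnf among the members, and no other motif was searched. It was found in 1 of 15 promoters of 7 member genes and in 0.441% of all 32851 promoters in the table. These shares do not test enrichment, since the choice of motif could fix the Bdnf match in advance. The 100 bases before the start site run as follows, with the motif in capitals, its first base 38 bases before the start.
Bdnf promoter, chr2:109692336-109692435, plus strand: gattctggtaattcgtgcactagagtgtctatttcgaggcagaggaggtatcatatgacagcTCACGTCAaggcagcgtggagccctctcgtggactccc
A match describes the letters of this window, and the array does not say which promoter the Bdnf transcripts came from.

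The pattern of Bdnf over the 6 arrays was compared with that of 6149 named genes, predicted genes left out. Each was above background everywhere with a standard deviation of at least 0.2 and was taken by its probe most like Bdnf. The most alike were Pdcd1lg2 (r = 0.997), Opn1mw (r = 0.988), Adamts8 (r = 0.981), Gramd1c (r = 0.981) and Sik2 (r = 0.978). The Pdcd1lg2 probe was dim, with levels between -7.42 and -6.50. Pdcd1lg2 encodes a ligand of the immune checkpoint receptor PD-1, and Sik2 encodes a salt-inducible kinase that phosphorylates the CREB coactivators. Adamts8 encodes a secreted metalloproteinase. The Sik2 level was -0.08, 0.04 and 0.16 in KO sham and -0.44, -0.05 and -0.26 in WT sham. These values share 6 arrays and were selected for likeness among all those genes, so they are a description.

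Gdnf, a survival factor for midbrain dopamine neurons that adult rodents make mainly in the striatum, had the largest difference among the member probes. Its level was -7.15, -6.40 and -6.67 in KO sham and -5.59, -5.71 and -4.15 in WT sham. All KO samples were below all WT samples, and WT replicate 3 stood above the other WT arrays. The difference was -1.59 ± 0.45 (95% interval -2.69 to -0.49), 3.01-fold lower in KO sham, with an unadjusted p of 0.0122 and an adjusted p of 0.311 in limma. The probe was dim: its processed signal was 15.0, 23.1 and 21.7 in KO sham against 42.7, 36.5 and 111 in WT sham, where the lowest signal called well above background was between 4.29 and 5.04. The difference was -0.75 after normexp background correction with an offset of 50, -1.09 without WT replicate 3 and -2.004 on the slide with both genotypes.

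Ntf3, the preferred ligand of TrkC, is known in adult rodent forebrain best from the dentate gyrus. It was at -3.42, -3.56 and -3.39 in KO sham and at -3.50, -3.33 and -1.54 in WT sham. The KO samples and WT replicates 1 and 2 fell within a narrow range, and only WT replicate 3 was high. The difference was -0.67 ± 0.52 (adjusted p = 0.625), and without WT replicate 3 it was -0.04 ± 0.10.

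Cntf was read by 2 probes, whose accessions in the array annotation include a read-through transcript with the neighbouring gene Zfp91. Cntf probe 1 was at -2.15, -2.23 and -2.02 in KO sham and at -2.17, -2.06 and -2.35 in WT sham, a difference of 0.06 ± 0.10 (95% interval -0.19 to 0.31). Cntf probe 2 was at -3.46, -3.78 and -3.59 in KO sham and at -3.50, -3.45 and -3.65 in WT sham, a difference of -0.08 ± 0.11 (95% interval -0.34 to 0.18). The groups overlapped at both probes, and the sign differed between them. Probe 2 turned to 0.07 after quantile normalization, and probe 1 turned to -0.02 without WT replicate 3.

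Among the receptors, the groups overlapped with all 3 Ntrk2 probes, and the 95% intervals of the 3 differences included 0. The full-length probe, the mean of 10 spots on 5 arrays and 9 on KO replicate 3, was at 2.67, 2.92 and 2.83 in KO sham and at 2.70, 2.69 and 2.63 in WT sham (difference 0.13 ± 0.08, 95% interval -0.07 to 0.34, adjusted p = 0.551). KO replicate 1, on the slide of the WT samples, had the WT level, and the difference within that slide was -0.002. The truncated probe was at 1.19, 1.10 and 1.11 in KO sham and at 1.16, 1.17 and 1.24 in WT sham (difference -0.06 ± 0.06, 95% interval -0.21 to 0.10). The shared probe was at 2.49, 2.497 and 2.43 in KO sham and at 2.38, 2.35 and 2.80 in WT sham (difference -0.04 ± 0.13, 95% interval -0.36 to 0.29). WT replicate 3 was the highest array at the shared probe, and without it the difference was 0.11. The log2 ratio of the full-length to the truncated probe was 1.49, 1.82 and 1.72 in KO sham and 1.54, 1.53 and 1.39 in WT sham. The groups overlapped, and an exact two-sided permutation test of the 5 probe ratios examined (Ntrk2, Ntrk3 and Cntf, chosen after the probes were seen) gave p = 0.3 for this one, where 3 against 3 cannot go below 0.1 (adjusted p = 0.625).

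Ntrk3 was higher in KO sham with all 4 of its probes, and no overlap between the groups was seen with 3 of them, though none passed after adjustment. Truncated probe 2 had the smallest p of these, at 1.07, 1.14 and 1.17 in KO sham against 0.85, 0.98 and 0.93 in WT sham. Its difference of 0.20 ± 0.07 (95% interval 0.03 to 0.37), or 1.15-fold, had an unadjusted p of 0.0257 and an adjusted p of 0.363 in limma. Truncated probe 1 was at 1.505, 1.72 and 1.54 in KO sham and at 1.46, 1.42 and 1.39 in WT sham (difference 0.17 ± 0.08, adjusted p = 0.461). Kinase probe 1 was at -0.01, 0.03 and -0.04 in KO sham and at -0.05, -0.05 and -0.31 in WT sham (difference 0.13 ± 0.09). For kinase probe 1 the gap to WT replicates 1 and 2 was small, and without WT replicate 3 the difference was 0.04. Kinase probe 2 was at 2.35, 2.53 and 2.43 in KO sham and at 2.33, 2.40 and 2.16 in WT sham, with overlap (difference 0.14 ± 0.09). The 4 probes read transcripts of the same gene in the same samples and are not independent of each other. On the slide with both genotypes their differences were between 0.05 and 0.15, and the sign was kept under every scaling tried. The log2 ratio of kinase to truncated probes did not separate the groups, at -0.12, -0.15 and -0.16 in KO sham and -0.01, -0.03 and -0.24 in WT sham (exact two-sided permutation p = 0.4, adjusted p = 0.625).

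**Figure D2:**
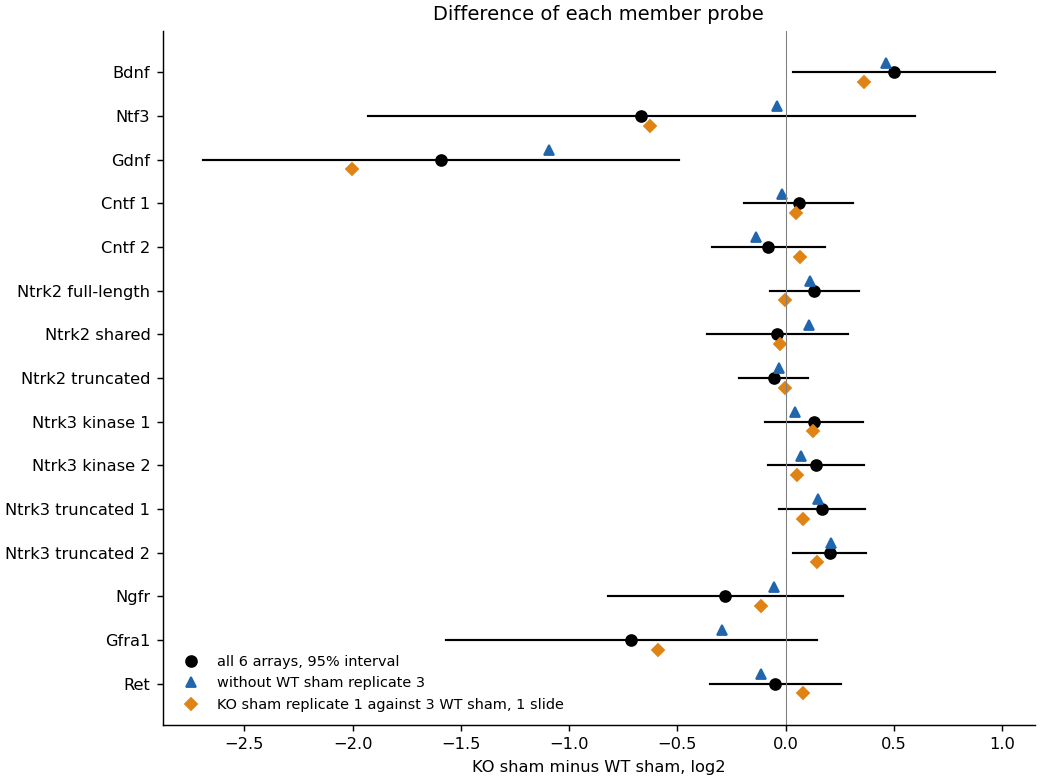
Difference between KO sham and WT sham for each member probe. The x axis gives KO sham minus WT sham in log2, black points with lines are the limma estimate from all 6 arrays with its 95% interval, blue triangles leave out WT sham replicate 3, and orange diamonds use only the slide with both genotypes. The intervals of Bdnf, Gdnf and Ntrk3 truncated probe 2 lie to 1 side of 0 before adjustment, and the Ntf3 difference is -0.04 without WT sham replicate 3.

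Gfra1, the co-receptor for Gdnf, was at -4.15, -4.30 and -4.36 in KO sham and at -3.92, -4.03 and -2.72 in WT sham. The groups did not overlap, but WT replicates 1 and 2 were close to the KO samples and WT replicate 3 was far above both. The difference was -0.71 ± 0.35 (95% interval -1.57 to 0.14, adjusted p = 0.462), and without WT replicate 3 it was -0.30 ± 0.09. Ret, the kinase that Gfra1 engages, was at -3.01, -3.12 and -3.29 in KO sham and at -3.17, -2.88 and -3.23 in WT sham (difference -0.05 ± 0.12, 95% interval -0.35 to 0.26). Its samples were interleaved, and the sign turned to 0.07 after quantile normalization. Ngfr, which in adult rodent brain marks cholinergic neurons of the basal forebrain, was at -3.36, -3.50 and -3.73 in KO sham and at -3.62, -3.33 and -2.80 in WT sham (difference -0.28 ± 0.22, adjusted p = 0.634). The highest array was again WT replicate 3, and without it the Ngfr difference was -0.05. Repeat spots varied far less than samples: the standard deviation over the 10 Ngfr spots of an array was between 0.04 and 0.08, against 0.18 between KO samples and 0.42 between WT samples.

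WT replicate 3 was the highest array for 6 and the lowest for 5 of the 15 member probes, and it also stood apart in markers of brain regions. Of 11 striatal markers, 11 were lower in KO sham, 1 of them at an unadjusted p under 0.05 (9.09% of all genes in that direction) and 2 without overlap (12.1% of all genes), with 0 after adjustment. With arrays centred on their median 9 of 11 were lower, and without WT replicate 3, 8 of 11 were lower and the median difference was -0.35, against -0.93 with all arrays. Their median relative to the WT mean was -0.90, -0.79 and -0.86 in KO sham and -0.24, -0.72 and 1.09 in WT sham. Summed linear levels (signal over the 75th percentile) of the 10 of these markers with a value on all 6 arrays ranged from 23.8 to 27.4 in KO sham and from 23.2 to 67.4 in WT sham, so the sums overlapped. The dopamine receptor Drd1 was at -2.92, -2.58 and -2.63 in KO sham and at -2.11, -2.22 and -0.78 in WT sham. Gdnf, Gfra1, Ntf3 and Ngfr had their highest value on the array with the highest striatal median. That array also had the highest median for the basal forebrain cholinergic (0.49), choroid plexus (0.60), meningeal (0.44), hippocampal (0.43) and astrocyte (0.04) lists. It did not for the activity, neocortical, oligodendrocyte, dopamine neuron, Schwann cell and general brain lists. The part of striatal or other tissue in the differences of these members was not tested. Without WT replicate 3 the Gdnf difference was -1.09 and the Gfra1 difference -0.30.

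The 4 tested markers of basal forebrain cholinergic neurons had medians of -0.56, -0.15 and -0.52 in KO sham and -0.29, -0.30 and 0.49 in WT sham, and all 4 were lower in KO sham. Choline acetyltransferase (Chat) was at -2.02, -2.20 and -2.05 in KO sham and at -1.84, -1.26 and -1.81 in WT sham, highest on WT replicate 2. Ngfr was highest on WT replicate 3, as were the cholinergic transporters Slc18a3 (-2.93) and Slc5a7 (-3.30). Lhx8, also on this list, was instead highest on KO replicate 2 (-4.28, against -4.29 on WT replicate 3). Its KO sham levels went down to -8.78. Without KO replicate 1, 3 of these 4 markers were lower in KO sham. The 9 choroid plexus markers ranged in summed level from 8.23 to 14.8 in KO sham and from 5.31 to 25.5 in WT sham, of which transthyretin (Ttr) alone made 76.6% to 87.1% on each array. The summed levels of 10 markers of meninges and fibroblasts ranged from 7.44 to 10.4 in KO sham and from 9.51 to 16.7 in WT sham. All 9 and all 10 were lower in KO sham, 2 of each list at an unadjusted p under 0.05, against 9.09% of all genes in that direction. Without overlap, 2 of 9 and 6 of 10 were lower, against 12.1% of all genes, and without WT replicate 3, 7 of 9 and 10 of 10 were lower. Summed levels of 9 hippocampal markers ranged from 7.34 to 9.03 in KO sham and from 6.93 to 12.9 in WT sham, the highest again on WT replicate 3. Wfs1 alone made 47.0% to 67.2% of this sum on each array. The list was mixed, with 4 genes higher and 5 lower in KO sham. Tdo2, at a low level, was higher in KO sham without overlap (0.87 ± 0.14, adjusted p = 0.205, limma) and lowest on WT replicate 3 (-8.02). Astrocyte markers, whose cells carry truncated TrkB, differed by a median of 0.01 over 9 genes. Median differences were 0.18 over 7 neocortical, -0.30 over 8 oligodendrocyte, -0.31 over 5 midbrain dopamine neuron and -0.15 over 5 Schwann cell markers. These medians depended on single arrays or on the scaling. The oligodendrocyte median was -0.46 and -0.12 without KO replicates 1 and 2, and -0.08 and -0.57 without WT replicates 2 and 3. Mbp, the only gene of that list with an unadjusted p under 0.05, was higher in KO sham (0.33 ± 0.09, adjusted p = 0.302). The neocortical median was 0.08 without KO replicate 2 and 0.05 without WT replicate 2. The dopamine neuron median was -0.18 without WT replicate 1 and -0.12 after quantile normalization, and the Schwann cell median was -0.23 without KO replicate 3 and -0.01 with median centring.

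**Figure D3:**
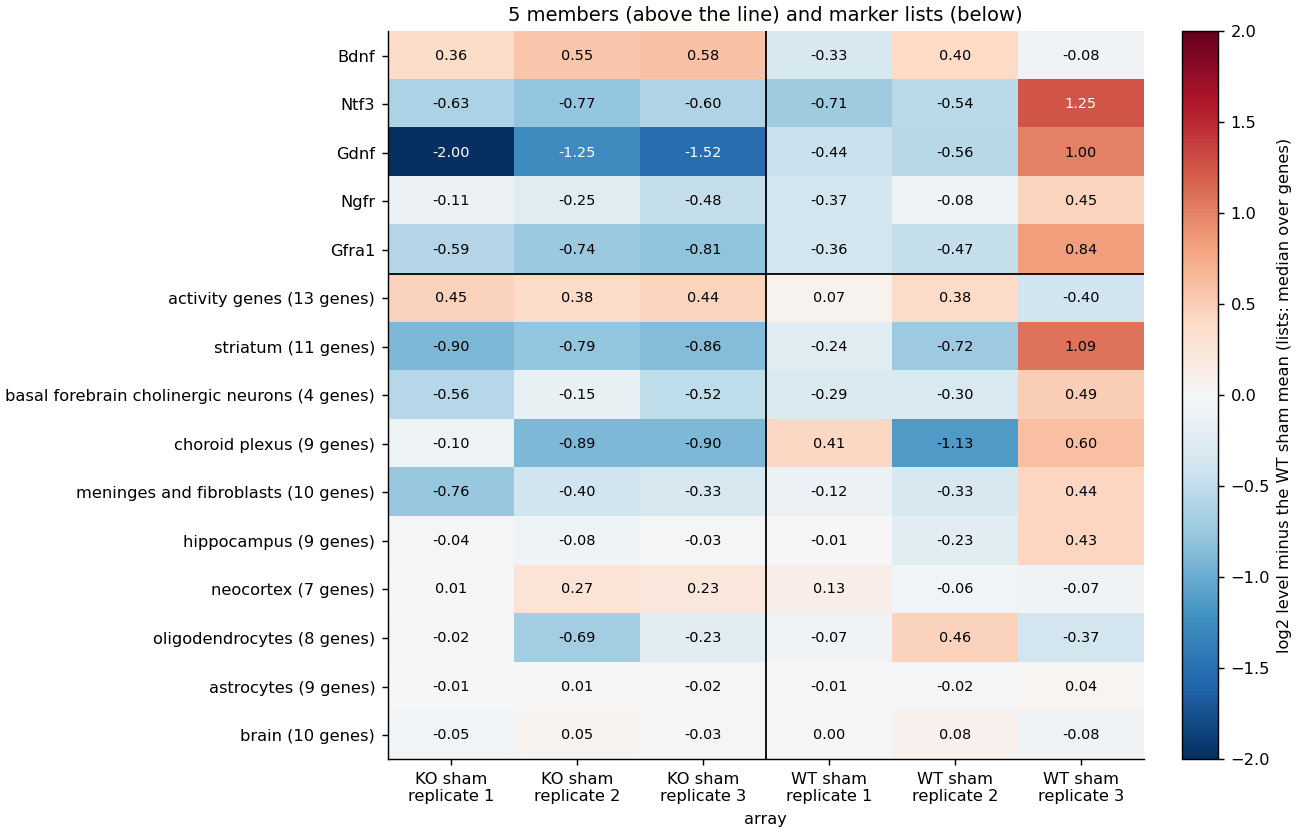
Levels of 5 members and of 10 marker lists on each array. Columns are arrays (KO sham on the left, WT sham on the right), colours and printed values are the log2 level minus the WT sham mean (for lists, the median over their genes), and the horizontal line separates members from lists. Striatal markers have a median of 1.09 on WT sham replicate 3 and between -0.90 and -0.24 on the other 5 arrays.

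The wider pathway was read from 76 further genes: other ligands and receptors, enzymes that process and release the factors, signalling molecules downstream, and regulators of Bdnf transcription. Of these, 74 had a tested probe and 0 passed after adjustment. In direction, 39 were higher and 35 lower in KO sham, with a median difference of 0.001 against -0.01 over all 20134 genes tested. This balance depended on the scaling. With arrays centred on their median, 7 of 11 ligands, 11 of 13 receptors and 7 of 8 processing and release genes were higher. So were 29 of 33 signalling genes and 8 of 9 regulators of Bdnf transcription, where the median over all probes was 0.13. The other pathway counts, here and below, use the scaling of the levels. At an unadjusted p under 0.05, 1 gene was higher and 3 were lower in KO sham, against 12.1% of all genes (2.98% higher, 9.09% lower). Without overlap between the groups were 6 higher and 4 lower genes, against 19.7% of all genes (7.65% higher, 12.1% lower). The ligand persephin (Pspn), for example, was not well above background on all arrays of either group and was not tested.

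Among 11 further ligands, 5 were higher and 6 lower, and no group pair was free of overlap. Pleiotrophin (Ptn), a heparin-binding growth factor, was at 3.02, 3.43 and 3.10 in KO sham and at 3.40, 3.60 and 3.88 in WT sham (difference -0.44 ± 0.16, unadjusted p = 0.0343, adjusted p = 0.383). A second Ptn probe differed by -0.21 ± 0.16. The endoplasmic reticulum stress-responsive factor Manf differed by 0.12 ± 0.11. Among 13 further receptors, the neurturin co-receptor Gfra2 was at 4.0, 4.24 and 4.02 in KO sham and at 3.93, 3.98 and 3.52 in WT sham (difference 0.28 ± 0.15). The sorting receptors Sorl1 and Sort1 differed by 0.33 ± 0.15 and 0.04 ± 0.09, Sorl1 without overlap. Ncam1, an alternative Gdnf receptor, differed by -0.07 ± 0.06, also without overlap. The Cntf receptor Cntfr, outside the naming rule and named after its values were seen because it was among the few with an unadjusted p under 0.05, was at -0.05, 0.03 and 0.06 in KO sham and at 0.04, 0.97 and 0.83 in WT sham (difference -0.60 ± 0.24, adjusted p = 0.413). WT replicate 1 had the level of the KO samples there.

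Processing and release genes differed little. The proconvertase Furin, which cleaves proneurotrophins, was at 0.42, 0.61 and 0.61 in KO sham and at 0.40, 0.36 and 0.42 in WT sham (difference 0.16 ± 0.08, adjusted p = 0.466), where KO replicate 1 exceeded the highest WT sample only slightly. The sorting receptor carboxypeptidase E (Cpe) differed by -0.06 ± 0.08, and Cadps2, which promotes dense-core vesicle release, by -0.11 ± 0.08. Of 33 signalling genes, 20 were higher and 13 lower, and 0 had an unadjusted p under 0.05. The feedback inhibitor of receptor tyrosine kinases Spry2 was at -2.64, -2.59 and -2.70 in KO sham and at -2.79, -2.86 and -3.27 in WT sham (difference 0.33 ± 0.14). The adaptor Sh2b1, which binds Trk receptors, differed by 0.14 ± 0.06 without overlap. Socs3, the inhibitor of cytokine signalling induced downstream of the Cntf receptor, was at -0.92, -1.11 and -1.07 in KO sham and at -0.09, -0.91 and -0.66 in WT sham (difference -0.49 ± 0.21, adjusted p = 0.429). The brightest signalling probes, Arhgdia and Ptpn11, differed by 0.05 ± 0.09 and 0.002 ± 0.07.

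Of 9 regulators of Bdnf transcription, 6 were higher and 3 lower in KO sham. Npas4, among the higher ones, is also on the list of activity genes, so the 2 lists are not separate. Rest, a repressor of neuronal genes, was at -3.28, -3.37 and -3.32 in KO sham and at -3.06, -3.07 and -3.17 in WT sham. All KO samples were below all WT samples, with a difference of -0.22 ± 0.07 (unadjusted p = 0.0177, adjusted p = 0.332), and a second Rest probe differed by -0.21 ± 0.07, also without overlap. The cyclic AMP-responsive modulator Crem, outside the naming rule and likewise named after its values were seen because it was the only pathway gene higher in KO sham at an unadjusted p under 0.05, was at -0.13, 0.04 and 0.11 in KO sham and at -0.35, -0.11 and -0.50 in WT sham (difference 0.33 ± 0.12, adjusted p = 0.391). Its other tested probes differed by 0.22 ± 0.11 and -0.44 ± 0.32. The CREB coactivator Crtc1 differed by 0.10 ± 0.10, with overlap.

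**Figure D4:**
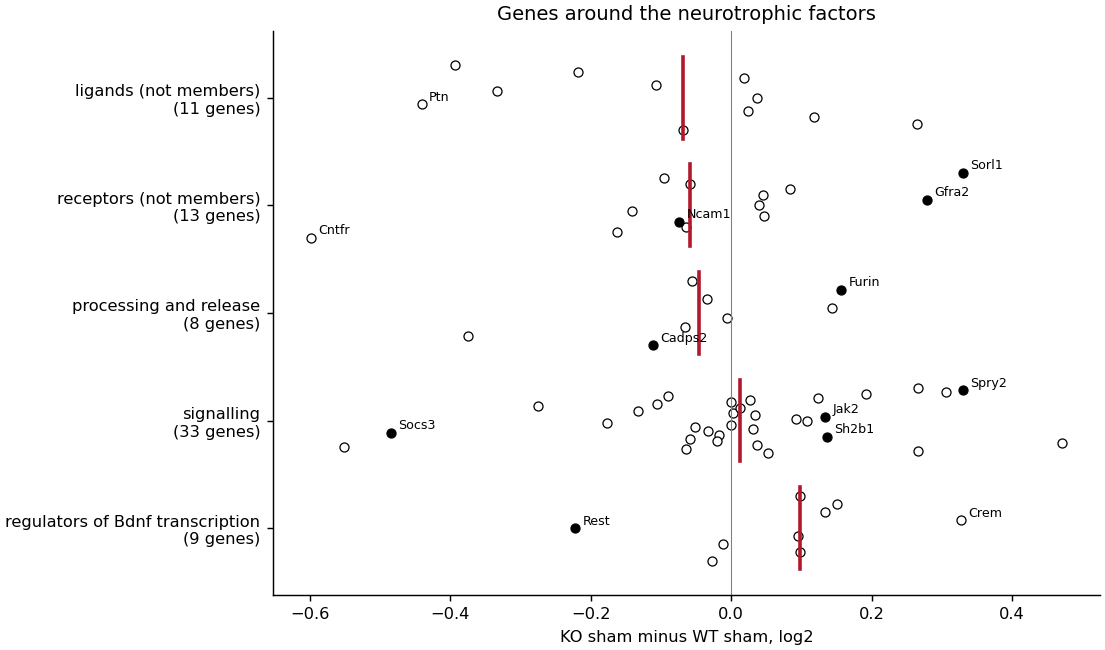
Differences of the 74 tested pathway genes. The x axis gives KO sham minus WT sham in log2, each row is a list, each point a gene (filled where the groups did not overlap), and red bars are list medians; genes without overlap or with an unadjusted p under 0.05 are named. The list medians lie between -0.07 and 0.10.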

How the data were processed

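Per the file headers and the submitters' processing notes, the authors deposited Agilent Feature Extraction 12.1.1.1 output, and the intensity used was its processed signal, which is background-subtracted and detrended within the array but not normalized between arrays. The annotation is on mm9. Here, outlier-flagged spots were left out, spots of a probe averaged, log2 taken and the 75th percentile of the array's non-control probes subtracted. A probe was tested if well above background on all arrays of at least 1 group. KO and WT were compared with lmFit and eBayes of limma 3.58.1 (R 4.3.3) over 31955 probes, with Benjamini-Hochberg adjustment at 0.05, tested on simulated data. For pathway and marker genes the probe with the highest mean was used. Members and lists were chosen with earlier results of these data known. Named were all members, and of each pathway list the 2 brightest genes and, in each direction, the 2 non-overlapping ones with the smallest p, the 5 genes most like Bdnf, and Pla2g2e. Not every gene that this rule names is reported here. All 184 list genes matched the files, 4 through RefSeq synonyms (GRCm38.p6). The number of arrays, 3 per group, limits the precision. Same-numbered samples did not deviate together (r = -0.04, -0.15 and -0.10), so numbers were not taken as pairs. Alternatives covered background correction, scaling, probe filter, outlier spots, slide, probe choice and leaving out each array; probe ratios and list directions under other scalings were added after seeing the data. Promoter sequences came from RefSeq.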

Additional observations from a re-analysis of the deposited data

How the results depend on the processing

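No member probe passed an adjusted p of 0.05 under any of the alternatives (255 values, smallest adjusted p 0.138, Bdnf without WT replicate 2), and 238 of the 255 values kept their sign. The cause of the changes below was not tested. Member probes with an unadjusted p under 0.05 numbered 3, and 5 with median centring, 1 with slide as a fixed block, 1 within the slide of both genotypes and 1 to 4 when an array was left out. Pathway genes numbered 4, and 11 with normexp, 13 with median centring, 1 within that slide and 0 to 7 when an array was left out. All tested probes numbered 3868, and 1758 with slide as a block, 1353 within the slide, 2461 with 1 probe per gene and 2498 with gene means (both with fewer features tested), and 2224 to 5604 when an array was left out. After adjustment 0 probes passed, and 0 to 884 when an array was left out; the 884 came without KO replicate 1, where genotype and slide cannot be told apart. With the replicate number as a block, 2 member probes and 4 pathway genes had an unadjusted p under 0.05, 3349 probes did in all, and 0 passed after adjustment. Cntf probe 2 turned to 0.072 with quantile normalization, 0.063 with median centring, 0.069 with slide as a block or alone and -0.15 to 0.0053 when an array was left out. Ret turned to 0.069, 0.096 and 0.080 under the same settings and to -0.11 to 0.060. Median centring also turned the shared Ntrk2 probe to 0.11 and the truncated one to 0.088, and slide turned the full-length one to -0.0023. When an array was left out, the shared probe lay between -0.12 and 0.11 and Cntf probe 1 between -0.018 and 0.13. The dim Gdnf probe moved with the background correction, to -0.75 with normexp.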
